A study of Mus musculus with 8 samples.

Results

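The genes described here are 10 mouse genes tied to the control of mineral deposition: Spp1, Ibsp, Mgp, Bglap, Alpl, Enpp1, Tnfrsf11b, Runx1, Runx2 and Runx3. They are 10 of the 36528 genes counted, matched by Entrez identifier. They were chosen from earlier results of the same comparison, the counts of BAP1 KO against WT libraries, so their differences between genotypes are a description without a p-value. Messenger RNA was sequenced from primary mouse mesothelial cells, which form the lining of body cavities. Their source was the omentum, a fatty fold of that lining in the abdomen. The 8 libraries were 4 of wild type (WT) and 4 in which BAP1 was knocked out (BAP1 KO); BAP1 is a nuclear deubiquitinase and tumour suppressor. The labels used here name no treatment, age, Cre line or deleted exon, and do not say whether animals were pooled or how many animals or cultures stand behind the 4 libraries of each genotype.

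Soft tissues are kept free of mineral by inhibitors. Pyrophosphate blocks the growth of calcium phosphate crystals: ENPP1 makes it outside the cell, and tissue-nonspecific alkaline phosphatase, encoded by Alpl, breaks it down. Matrix Gla protein (Mgp) is a secreted inhibitor of calcification, and osteopontin (Spp1) is an acidic phosphoprotein that binds crystals and signals to cells through integrins and CD44. Osteoprotegerin (Tnfrsf11b) is a soluble decoy for RANKL, the cytokine that drives osteoclast formation. Bone sialoprotein (Ibsp) and osteocalcin (Bglap) are products of bone-forming cells, and RUNX2 directs the osteoblast program. Osteopontin is also known as a blood marker studied in mesothelioma.

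Libraries held 67.1 to 84.9 M counts. Bap1 lay between 62.6 and 64.2 CPM (counts per 1 M of the library total, adjusted by TMM) in WT and between 52.0 and 54.0 CPM in BAP1 KO, or 84.2% of the WT level; a count over a whole gene cannot tell a deleted exon from a retained one. The 12 mesothelial markers all passed the filter on low counts and summed to 1218 to 1248 CPM in WT against 1288 to 1298 CPM in BAP1 KO, with 5 higher and 5 lower by the edgeR test (adjusted p below 0.05). The sum rests mainly on Upk3b, Lrrn4, Upk1b and Wt1, and single markers moved more than it did. Log2 fold changes were -1.188 for Msln, -1.565 for Krt8 and -1.385 for Krt18. They were 0.453 for Wt1, 0.813 for Cldn15 and 0.932 for Muc16. Some genes listed as markers of other cells were abundant, and the sums rest mainly on a few of them. Which cells expressed these genes was not tested. The 16 macrophage and myeloid markers summed to 15819 to 16183 CPM in WT against 18239 to 18841 CPM in BAP1 KO, with 8 higher and 6 lower. Lyz2 alone made up most of both sums, at 8220 to 8550 CPM in WT and 10700 to 11200 CPM in BAP1 KO. The higher sum therefore mainly reflects this 1 gene. The 9 fibroblast markers summed to 19593 to 20961 CPM in WT against 15732 to 16320 CPM in BAP1 KO, with 8 lower and 1 that did not pass. Most of this sum was collagen: in WT, Col1a1 was at 8080 to 8840, Col1a2 at 5920 to 6300 and Col3a1 at 4040 to 4310 CPM. Pdgfra, Dcn and Thy1 lay between 334 and 600 CPM in WT. Lum was at 36.2 to 41.8, Dpt at 8.45 to 9.33 and Pi16 at 1.30 to 1.86 CPM. The 9 smooth muscle and pericyte markers summed to 9663 to 10130 CPM in WT against 10011 to 10137 CPM in BAP1 KO, with 3 higher and 4 lower. Acta2 alone made up most of this sum, at 5480 to 5800 CPM in WT. Des was at 1690 to 1800 CPM in WT, and Myh11, Cnn1, Actg2, Pdgfrb and Smtn lay between 184 and 679 CPM. Cspg4 and Rgs5 were low, at 1.43 to 1.80 and 0.276 to 0.493 CPM. The 6 endothelial markers had a low sum, 28.8 to 29.7 CPM in WT against 18.3 to 19.6 CPM in BAP1 KO, with 3 of 4 tested lower and 1 that did not pass. The 6 adipocyte markers summed to 149 to 153 CPM against 162 to 166 CPM, with 4 of 5 tested higher and 1 that did not pass. Of these 6 lists, only the adipocyte marker Lep was at 0 in every library. Macrophages can make osteopontin, fibroblasts can make Mgp and Tnfrsf11b, and cells of vessel walls can make Mgp and Tnfrsf11b. The part of these cells in the differences below was not tested, and in bulk RNA fewer cells of a type and less RNA per cell cannot be told apart.

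Spp1, Mgp and Tnfrsf11b, the 3 members with the highest WT levels per gene length, were 3.18- to 4.47-fold lower in BAP1 KO. Enpp1 and Runx3 were lower by smaller amounts, and Alpl, Runx1 and Runx2 were higher. Of the 10 members, 8 passed the filter on low counts, and Ibsp and Bglap did not. All 8 passed the edgeR test (adjusted p below 0.05), 5 lower and 3 higher, where 61.1% of the 16929 genes tested passed, 32.1% lower and 29.0% higher. The ranges of the genotypes did not overlap for any of the 8, as for 53.8% of the genes tested. Since this comparison chose the members, nothing is read from these counts. The median log2 fold change of the 8 was -0.67, beside a median of -0.005 over all genes tested.

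**Figure D1:**
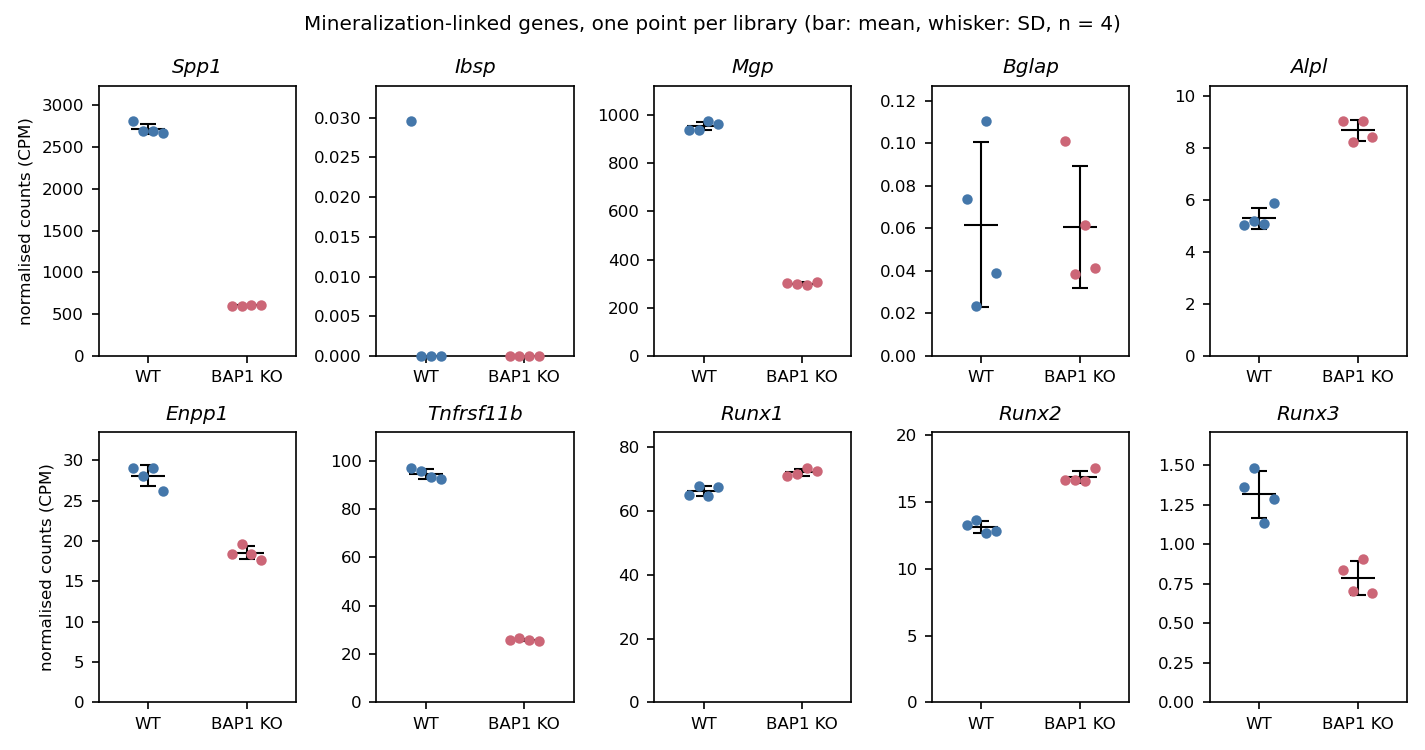
Normalised counts (CPM, linear axes from 0) of the 10 members in each library, WT in blue and BAP1 KO in red, with the mean and SD of 4 libraries (Ibsp without mean, since 7 of its 8 values are 0). The genotypes are apart in 8 panels and overlap for Bglap, and Ibsp has counts in 1 WT library.

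Spp1 (Entrez 20750; GRCm38 chromosome 5, 104435111 to 104441053) encodes osteopontin. It stood at 2808, 2693, 2687 and 2668 CPM in the WT libraries and at 602, 602, 612 and 613 CPM in the BAP1 KO libraries. The lowest WT library was 4.35 times the highest BAP1 KO library, and the libraries within a genotype differed by little, with a coefficient of variation of 2.35% in WT and 1.01% in BAP1 KO. The mean went from 2714 ± 63.8 CPM to 607 ± 6.14 CPM (SD, n = 4), which is 22.4% of WT, a log2 fold change of -2.16 ± 0.02 (SE). Each library held 41690 to 228841 Spp1 counts, so counting error is small beside the difference. Among the 2113 tested genes at 100 CPM or more in WT, Spp1 had the lowest fold change. Its mean was 2107 CPM lower in BAP1 KO, the second largest such difference in that direction among all genes.

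The 250 bases before the Spp1 start site are shown because the RUNX factors are measured here too, and Spp1 is a gene of bone matrix. The sequence is from RefSeq on GRCm38.p6, chr5:104434861-104435110, plus strand, with the RUNX core in capitals; the core begins 128 bases before the start site.

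Spp1: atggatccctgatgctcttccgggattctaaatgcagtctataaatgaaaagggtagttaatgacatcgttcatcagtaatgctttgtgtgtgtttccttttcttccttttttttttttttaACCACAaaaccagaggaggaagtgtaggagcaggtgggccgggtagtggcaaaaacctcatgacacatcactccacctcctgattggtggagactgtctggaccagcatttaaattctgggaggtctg

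The core searched was TGTGGT or TGCGGT on either strand, so ACCACA is its reverse complement. Windows of 300 bases, from 250 before to 50 after a start site, were present for 8 of the 10 members and not for Mgp and Tnfrsf11b. The core lay in 6 of the 12 windows of these members, and in 22.4% of the 32851 windows of all genes; those of Alpl and Ibsp held none. AP-1 sites, searched as TGANTCA on either strand, lay in no window of a member and in 7.8% of all windows; these letters do not overlap the RUNX core. A match is a description of the sequence and not evidence of binding. Enpp1 and Bglap also have 1 core each, shown with the bases around it (Enpp1 chr10:24712286-24712315 and Bglap chr3:88384581-88384610, both on the minus strand).

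Enpp1: cactctttgcagACCACAcagcgattccag

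Bglap: ccgcaatcacctACCACAgcatcctttggg

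Ibsp (chromosome 5, 104299287 to 104311472), the other acidic bone phosphoprotein among the members, was close to silent. It had 2 counts in 1 WT library and no count in the other 7. Across the 8 libraries, 3 counts would be 0.035 to 0.045 CPM, and these limits cover counting error only. Ibsp and Spp1 belong to a family of phosphoprotein genes that lie side by side. The other members of that family, Dspp, Dmp1 and Mepe, start 264, 237.5 and 109.8 kb before the Spp1 start, and Ibsp 135.8 kb before it. Over all 8 libraries Dspp had 1 count, Dmp1 15 and Mepe 0, against 1002210 for Spp1. Of this cluster, Spp1 was thus the member with substantial counts in both genotypes.

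Mgp (Entrez 17313; chromosome 6, 136872435 to 136875823) is the calcification inhibitor of cartilage and vessel walls. It stood at 938, 940, 974 and 963 CPM in WT and at 302, 298, 293 and 308 CPM in BAP1 KO. All 4 BAP1 KO libraries were below all WT libraries, by 3.05-fold at the closest pair. The mean went from 954 ± 17.8 to 300.0 ± 6.36 CPM (SD, n = 4), 31.5% of WT, with a log2 fold change of -1.67 ± 0.02 (SE). Mgp had the fifth lowest fold change among the genes at 100 CPM or more in WT.

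Bglap (chromosome 3, 88383495 to 88384466), the other small Gla protein of the list, had 2 to 8 counts in WT and 3 to 7 in BAP1 KO, 18 in all in each genotype. The ranges overlapped, and no fold is given at this depth. Bglap has near-identical copies, and only uniquely aligning reads were counted: 56.6% of the 50-base stretches of its transcripts also occur in transcripts of other genes, chiefly Bglap2 and Bglap3. The copies Bglap2 and Bglap3 had 45 and 4 counts over all 8 libraries. For Mgp, Alpl, Tnfrsf11b and Ibsp the shared percentage was 0, so their counts are not split in this way.

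Spp1 and Mgp changed places in the order of levels. Levels of different genes are compared per gene length, in the authors' size-factor-adjusted RPKM (nRPKM). In WT, Spp1 was at 1616 ± 38.1 and Mgp at 1572 ± 30.1 nRPKM (SD, n = 4), ranks 14 and 15 of all genes, and their ranges overlapped. In BAP1 KO, Mgp was at 499 ± 10.8 and Spp1 at 365 ± 3.41 nRPKM, ranks 72 and 117, with no overlap. The ratio of Spp1 to Mgp within a library was 0.996 to 1.08 in WT and 0.719 to 0.756 in BAP1 KO.

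Below this pair the WT order was Tnfrsf11b at 33.1, Runx1 at 8.75, Enpp1 at 8.17, Alpl at 1.43, Runx2 at 1.06, Runx3 at 0.311, Bglap at 0.0889 and Ibsp at 0.0037 nRPKM. In BAP1 KO, Runx1 stood above Tnfrsf11b (9.61 and 9.12 nRPKM), followed by Enpp1 at 5.44, Alpl at 2.36, Runx2 at 1.38, Runx3 at 0.187 and Bglap at 0.0881, with Ibsp listed at 0. Neighbours in the order did not overlap in either genotype, apart from Spp1 and Mgp in WT.

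**Figure D2:**
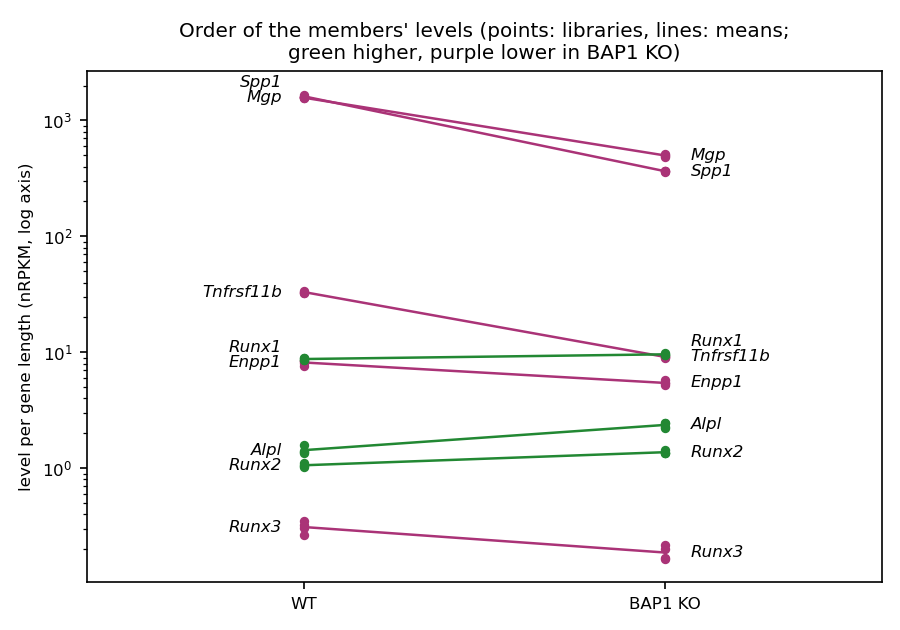
Levels per gene length (nRPKM, log axis) of the 8 members above the filter in WT and BAP1 KO, with points for libraries and lines joining the means. Spp1 and Mgp meet near 1600 nRPKM in WT and lie at 365 and 499 nRPKM in BAP1 KO, and Tnfrsf11b drops from 33.1 to 9.12 nRPKM, below Runx1.

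Tnfrsf11b (Entrez 18383; chromosome 15, 54250619 to 54278484) encodes osteoprotegerin. Its WT libraries were at 97.1, 95.6, 93.0 and 92.4 CPM and its BAP1 KO libraries at 25.7, 26.5, 25.7 and 25.4 CPM. The groups were apart by 3.49-fold at the closest pair. The mean went from 94.5 ± 2.19 to 25.8 ± 0.46 CPM (SD, n = 4), 27.3% of WT, with a log2 fold change of -1.87 ± 0.03 (SE).

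Its partners in the RANK axis moved in different directions. Tnfsf11, which encodes RANKL, was near the limit of detection, with 6 to 17 counts per library, 0.146 ± 0.046 CPM in WT against 0.167 ± 0.052 CPM in BAP1 KO (SD, n = 4), a log2 fold change of 0.21 ± 0.36 (edgeR adjusted p = 0.63). Tnfrsf11a, the receptor RANK, rose from 36.1 to 47.2 CPM (0.38 ± 0.03, edgeR adjusted p = 1.1e-12), with ranges of 35.4 to 36.8 CPM and 46.7 to 48.2 CPM. Tnfsf10, which encodes TRAIL, another ligand that osteoprotegerin binds, fell from 0.45 to 0.248 CPM (-0.86 ± 0.25, edgeR adjusted p = 0.004), on 14 to 50 counts per library. Of 18 tested genes of the RANK axis and of osteoclasts, 10 rose and 5 fell, leaving 3 that did not pass; the median log2 fold change was 0.12. The share that passed was 83.3%, beside 61.1% of all genes tested. Ctsk, the collagen-cutting cathepsin K, rose from 29.1 to 48.7 CPM (0.75 ± 0.03), and Mmp9, a gelatinase, from 63.0 to 92.7 CPM (0.56 ± 0.03). Acp5, tartrate-resistant acid phosphatase, fell by 1.43 ± 0.06 on the log2 scale, with 10.1 to 11.4 CPM in WT libraries. The other osteoclast markers differed in level. Atp6v0d2 was at 15.6 to 18.1 CPM in WT and 13.7 to 14.4 CPM in BAP1 KO (log2 fold change -0.25). Oscar was at 0.444 to 0.745 CPM in WT and 0.455 to 0.706 CPM in BAP1 KO. Dcstamp, Calcr and Ocstamp reached at most 0.165, 0.0578 and 0.0414 CPM in any library. The 8 osteoclast markers summed to 119 to 121 CPM in WT against 160 to 161 CPM in BAP1 KO, mostly from Mmp9 and Ctsk, which other macrophages also express.

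The enzymes that make and break pyrophosphate moved in opposite directions. Enpp1 (Entrez 18605; chromosome 10, 24637914 to 24712159), which makes it, was at 29.1, 28.0, 29.0 and 26.2 CPM in WT and at 18.4, 19.6, 18.4 and 17.7 CPM in BAP1 KO. The 4 BAP1 KO libraries were below all WT libraries, and the mean was 66.0% of WT, with a log2 fold change of -0.60 ± 0.04 (SE). Alpl (Entrez 11647; chromosome 4, 137741731 to 137796384), which breaks it down, was at 5.03, 5.18, 5.07 and 5.89 CPM in WT and at 9.01, 8.23, 9.02 and 8.41 CPM in BAP1 KO. All BAP1 KO libraries were above all WT libraries, and the mean was 164% of WT, with a log2 fold change of 0.71 ± 0.06 (SE). The ratio of Enpp1 to Alpl, both per gene length, went from 5.75 ± 0.66 in WT to 2.31 ± 0.18 in BAP1 KO (SD, n = 4), with ranges of 4.79 to 6.22 and 2.20 to 2.57. Enpp1 transcripts thus exceeded Alpl transcripts in both genotypes.

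Among 16 other tested genes of pyrophosphate and phosphate handling there were 11 falls and 3 rises, and 2 did not pass; of all genes tested, 32.1% were lower and 29.0% higher. The median log2 fold change was -0.19, beside -0.005 over all genes. Enpp3, a paralogue of Enpp1 that lies 61.7 kb from it, fell from 9.21 to 3.23 CPM (-1.51 ± 0.07, edgeR adjusted p = 7.9e-19), and Enpp5 from 50.7 to 38.7 CPM (-0.39 ± 0.03). Ank, which exports ATP and pyrophosphate from the cell, fell from 43.6 to 38.3 CPM (-0.18 ± 0.03), and Slc29a1, a nucleoside transporter, from 39.1 to 28.5 CPM (-0.46 ± 0.03). Nt5e, CD73, which turns AMP into adenosine, was low and fell from 1.77 to 0.856 CPM (-1.06 ± 0.14, edgeR adjusted p = 1.3e-07). Slc20a2, a sodium-phosphate cotransporter, rose from 125 to 172 CPM (0.46 ± 0.02).

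**Figure D3:**
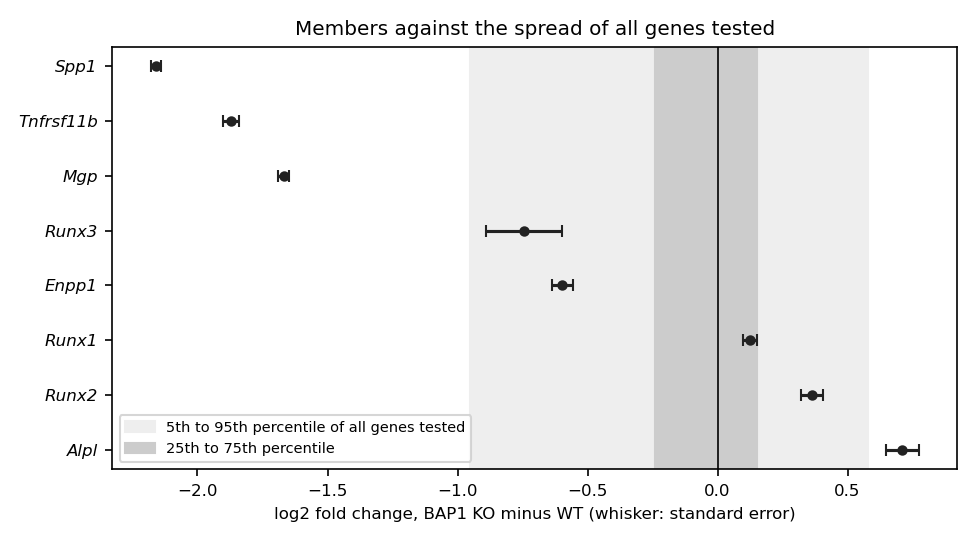
Log2 fold changes of the 8 members above the filter (BAP1 KO minus WT, whisker 1 standard error) over the spread of all 16929 genes tested, whose 5th and 95th percentiles are -0.95 and 0.58. Spp1, Tnfrsf11b, Mgp and Alpl lie outside that band, and Runx1 lies within the 25th to 75th percentile, -0.24 to 0.15.

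The RUNX factors differed among themselves in level and direction. Runx1 (Entrez 12394; chromosome 16, 92601466 to 92826074), known from blood cell development, was at 65.1, 67.8, 64.6 and 67.4 CPM in WT and at 71.1, 71.5, 73.6 and 72.5 CPM in BAP1 KO. The groups did not overlap but came within 1.05-fold of each other; the log2 fold change was 0.12 ± 0.03 (SE). Runx2 (Entrez 12393; chromosome 17, 44495987 to 44814797), the osteoblast factor, was at 13.3, 13.7, 12.7 and 12.8 CPM in WT and at 16.7, 16.6, 16.6 and 17.6 CPM in BAP1 KO. Its mean was 129% of WT, a log2 fold change of 0.36 ± 0.04 (SE). Runx3 (Entrez 12399; chromosome 4, 135120645 to 135177990), known from lymphocytes and neurons, was at 1.36, 1.48, 1.13 and 1.29 CPM in WT and at 0.838, 0.706, 0.908 and 0.689 CPM in BAP1 KO. It rested on 50 to 126 counts per library and had a log2 fold change of -0.74 ± 0.15 (SE). Per gene length, Runx1 stood 8.25 ± 0.26 times as high as Runx2 in WT and 6.99 ± 0.20 times in BAP1 KO, while the ratio of Runx2 to Runx3 went from 3.43 ± 0.29 to 7.45 ± 1.1 (SD, n = 4).

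The 3 RUNX genes share a sequence near an annotated start site, shown here because it is common to the family while Runx1 and Runx2 were higher and Runx3 was lower in BAP1 KO. Each holds 2 RUNX cores in the same orientation, separated by 2 bases (cores in capitals; RefSeq, GRCm38.p6; Runx1 chr16:92826025-92826054 and Runx2 chr17:44814583-44814612 on the minus strand, Runx3 chr4:135120503-135120532 on the plus strand).

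Runx1: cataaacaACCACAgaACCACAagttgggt

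Runx2: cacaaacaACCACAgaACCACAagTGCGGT

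Runx3: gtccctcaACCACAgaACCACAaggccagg

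A pair of TGTGGT cores with 2 bases between them, on either strand, lay in 7 of the 32851 windows, or 0.021%, and 3 of the 7 were these. The Runx2 piece holds a further core, TGCGGT. In Runx1 and Runx2 the first core of the pair begins 28 and 23 bases after the annotated start, and in Runx3 134 bases before it. The kit does not mark the strand, so for Runx1 and Runx2, whose exons overlap antisense transcripts over 106 and 519 bases, reads of either strand cannot be told apart. Spp1 exons overlap a provisional transcript model, Gm42793, on the same strand over 309 bases, and 11.6% of its 50-base stretches are shared with that model.

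Partners of the RUNX factors gave 6 rises and 4 falls among the 15 tested, a median of 0.02, and 5 did not pass. The share that passed, 66.7%, was near the 61.1% of all genes tested. Cbfb, the subunit that all RUNX factors bind, fell from 88.2 to 81.3 CPM (-0.12 ± 0.03, edgeR adjusted p = 0.00064). Smurf1 and Wwp1, ubiquitin ligases known to act on RUNX2, rose by 0.32 ± 0.03 and 0.34 ± 0.03, and Hdac4, a histone deacetylase that binds it, by 0.23 ± 0.03. Tle2, a Groucho corepressor, fell from 3.48 to 1.83 CPM (-0.93 ± 0.09).

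Of 9 tested receptors of osteopontin, 8 fell and 1 rose, where 32.1% of all genes tested were lower and 29.0% higher. The median log2 fold change was -0.16, beside -0.005 over all genes. Itgb3, the beta chain of the vitronectin receptor, fell by 1.42 ± 0.05 on the log2 scale (edgeR adjusted p = 2.3e-20); its WT libraries lay between 14.4 and 15.8 CPM and its BAP1 KO libraries between 5.34 and 5.98. Its alpha partner Itgav was the 1 that rose, from 421 to 469 CPM (0.16 ± 0.02). The other alpha-v partners Itgb5 and Itgb1 fell by 0.44 ± 0.02 and 0.16 ± 0.02, and Itga8 by 0.73 ± 0.05. Cd44, the hyaluronan and osteopontin receptor, fell from 354 to 296 CPM (-0.26 ± 0.02).

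The enzymes that modify osteopontin and Mgp changed by smaller amounts than Spp1 and Mgp. Fam20c, the secretory kinase that phosphorylates osteopontin, rose from 297 to 354 CPM (0.26 ± 0.02, edgeR adjusted p = 3.3e-11), while its pseudokinase partner Fam20a fell by 0.50 ± 0.04. Vkorc1, which recycles the vitamin K needed to carboxylate Mgp, fell from 50.0 to 38.8 CPM (-0.37 ± 0.03). Ggcx, the carboxylase itself, averaged 34.6 CPM in WT against 32.7 CPM in BAP1 KO (-0.09 ± 0.03, edgeR adjusted p = 0.028), a call that was lost with DESeq2 and without WT replicate 2 (-0.07), WT replicate 4 (-0.08), BAP1 KO replicate 3 (-0.08) or BAP1 KO replicate 4 (-0.07); the adjusted p under all alternatives was 0.0097 to 0.11. Of the Gla proteins, Pros1, the anticoagulant protein S, fell from 126 to 63.0 CPM (-0.99 ± 0.03), and Gas6, a ligand of TAM receptors, rose by 0.26 ± 0.02. The list has 13 genes, with 8 falls, 3 rises and 2 that did not pass, a median of -0.13; 84.6% passed, beside 61.1% of all genes tested.

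Most secreted proteins of mineralised matrix were at or near silence. Of 21, 16 did not pass the filter on low counts, and of the 5 tested, 4 fell and 1 rose (median -0.39), where 32.1% of all genes tested were lower. Sparc, osteonectin, an abundant collagen-binding protein also of soft tissue, fell from 7990 to 6360 CPM (-0.33 ± 0.02, edgeR adjusted p = 8.4e-17). Clec11a, osteolectin, fell from 13.0 to 4.97 CPM (-1.39 ± 0.06) and Ogn, osteoglycin, from 94.9 to 72.5 CPM (-0.39 ± 0.04), and Smoc2 rose by 0.26 ± 0.05.

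Markers that define bone and cartilage cells were near 0 in both genotypes. Sp7, the osteoblast factor downstream of RUNX2, ranged from 0.0444 to 0.165 CPM in WT and from 0.0276 to 0.0642 CPM in BAP1 KO. Mepe was at 0 in all libraries, and Sost reached 0.0138 CPM. The 9 osteoblast and osteocyte markers summed to 11.2 to 13.0 CPM in WT against 12.7 to 14.5 CPM in BAP1 KO. Of the 7 chondrocyte markers, which summed to 7.58 to 9.40 and 9.80 to 10.5 CPM, Col2a1, Acan and Hapln1 reached at most 0.0519, 0.0908 and 0.0118 CPM in any library.

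Among signals and transcription factors of bone formation, 15 of 29 tested rose and 9 fell, leaving 5 that did not pass; the median log2 fold change was 0.15, and 82.8% passed, beside 61.1% of all genes tested. The 4 genes with the smallest adjusted p all fell. Gdf6, a BMP-family ligand of joints, fell by 1.99 ± 0.03 on the log2 scale (edgeR adjusted p = 3e-31), from 98.2 to 102.5 CPM in WT libraries down to 24.8 to 25.7 CPM in BAP1 KO libraries. Bmp4 fell from 61.8 to 24.8 CPM (-1.32 ± 0.03), Kazald1 by 0.77 ± 0.05 and the cadherin Cdh11 by 0.36 ± 0.02. Chondrocyte genes gave 3 falls and 1 rise among 11 tested, and 7 did not pass, so that 36.4% passed, beside 61.1% of all genes tested. Col11a1, a fibrillar collagen, fell from 16.6 to 3.22 CPM (-2.36 ± 0.06, edgeR adjusted p = 1.9e-24), Matn3 from 0.709 to 0.157 CPM (-2.17 ± 0.23), and Sox9 rose by 0.29 ± 0.06. Matn3 rested on 11 to 63 counts per library. Sox6 was at 5.76 and 5.08 CPM (edgeR adjusted p = 0.03), lost with DESeq2 and without WT replicate 3 (-0.15), BAP1 KO replicate 1 (-0.14) or BAP1 KO replicate 3 (-0.15), with an adjusted p of 0.016 to 0.11 over the alternatives.

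Over the 8 lists together, 116 of 148 genes were tested, of which 40 rose, 52 fell and 24 did not pass. The share that passed, 79.3%, stands beside 61.1% of all genes tested. The lists, like the members, were chosen with earlier results of these data known, so nothing is read from the shares of any list. Exons of Acp5, Ank, Bmp4, Gas6, Hdac4, Itga8, Itgav, Slc20a2, Slc29a1, Tle2, Vkorc1 and Wwp1 overlap those of another gene, so their counts are less certain.

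**Figure D4:**
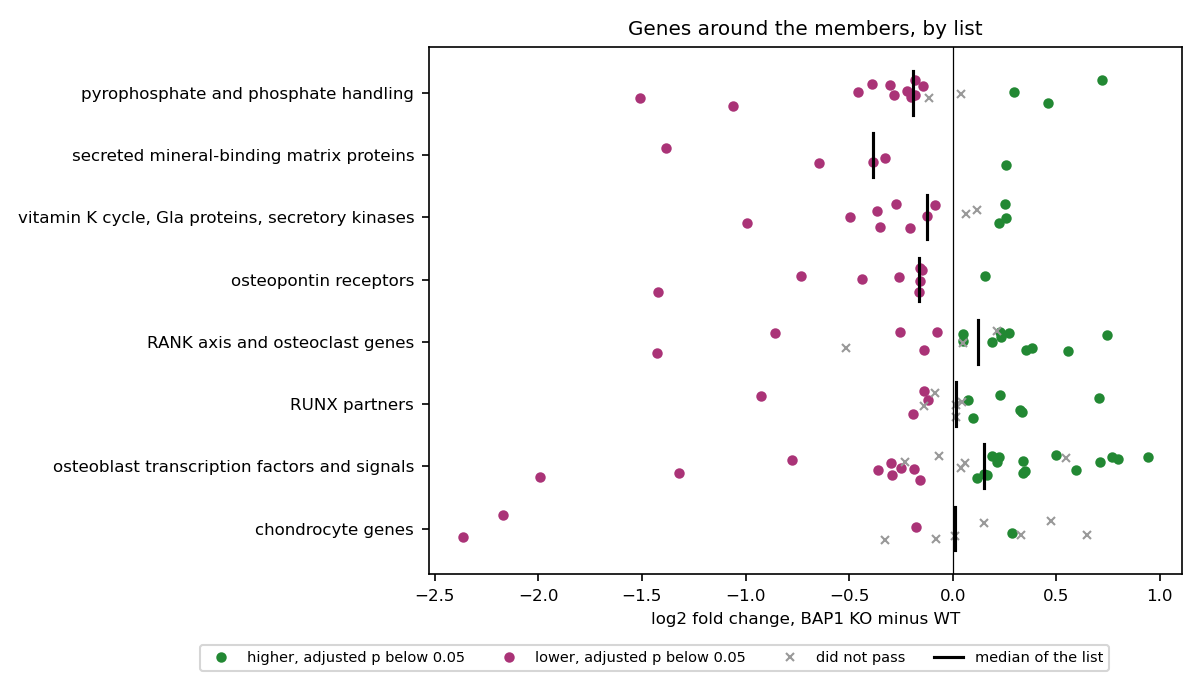
Log2 fold changes (BAP1 KO minus WT) of the 116 tested genes in the 8 lists, one point per gene and list, with the median of each list as a black bar. Medians run from -0.39 for secreted mineral-binding matrix proteins to 0.15 for osteoblast transcription factors and signals, and each list holds points on both sides of 0.

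Over the 8 libraries, the genes whose log2 CPM followed Spp1 most closely, among 9225 protein-coding genes at a mean of 10 CPM or more, were Col8a1 (Pearson r = 0.9999), Tnfrsf11b (0.9997) and Gdf6 (0.9996). Col8a1, a short-chain collagen, averaged 186 CPM in WT against 49.0 CPM in BAP1 KO. Closest to Mgp were Dkk3 (0.9997), Ptgr1 (0.9996) and Cpe (0.9995), which were lower in BAP1 KO by 0.78, 1.02 and 0.53 on the log2 scale. These values are a description: all genes share the same libraries, and with 2 tight groups r mostly reflects the difference between genotypes. After subtracting each genotype's mean the closest genes were others, Cnot9, Tceal8 and Calca for Spp1 and Mrps28, Mrpl37 and Krtcap2 for Mgp, with r of 0.962 to 0.981. These were the highest of 9225 genes over only 8 values. Whether unrelated genes would reach such r was not tested, so no shared variation is read from them. Within genotypes Spp1 and Mgp had r = -0.36, Spp1 and Tnfrsf11b 0.46, and Mgp and Tnfrsf11b -0.70, each over 8 values. Subtracting the 2 means leaves fewer than 8 free values. For Spp1 the remaining spread lies largely in WT replicate 1, at 2808 CPM beside 2668 to 2693 CPM in the other WT libraries.

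The genes nearest to a member on its chromosome were compared as well, by a rule added after the data were seen: the 5 nearest tested genes on each side, with distances between the facing ends of the genes. Of the 10 neighbours of a member, 6 to 8 passed the edgeR test, which is near the 61.1% of all genes tested. Beside Spp1, 5 of 10 were lower and 1 higher. Pkd2, 12.9 kb away, fell by 0.33 ± 0.02 (edgeR adjusted p = 1.6e-13), and the SPARC-like gene Sparcl1, 321 kb away, fell from 17.5 to 6.03 CPM (-1.54 ± 0.06). The 4 tested genes beyond Pkd2 on that side did not pass. Beside Mgp, 5 were lower and 3 higher, and beside Tnfrsf11b 6 were lower and 1 higher; Ccn3, 467 kb away, fell from 11.4 to 4.70 CPM (-1.27 ± 0.07). Near Enpp1, 7 of 10 were lower and 3 did not pass, among them Enpp3, Arg1 (arginase, from 93.0 to 26.6 CPM, -1.81 ± 0.03) and Ccn2, 39.2 kb away (-0.61 ± 0.02). Near Alpl, 6 of 10 were higher and 1 lower, with rises of 0.54 ± 0.03 for Hspg2 and 0.35 ± 0.02 for Eif4g3, and Rap1gap, the nearest at 11.9 kb, did not pass (edgeR adjusted p = 0.86). No neighbour of Spp1, Mgp or Tnfrsf11b had a fold change as low as that of the member itself.

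**Figure D5:**
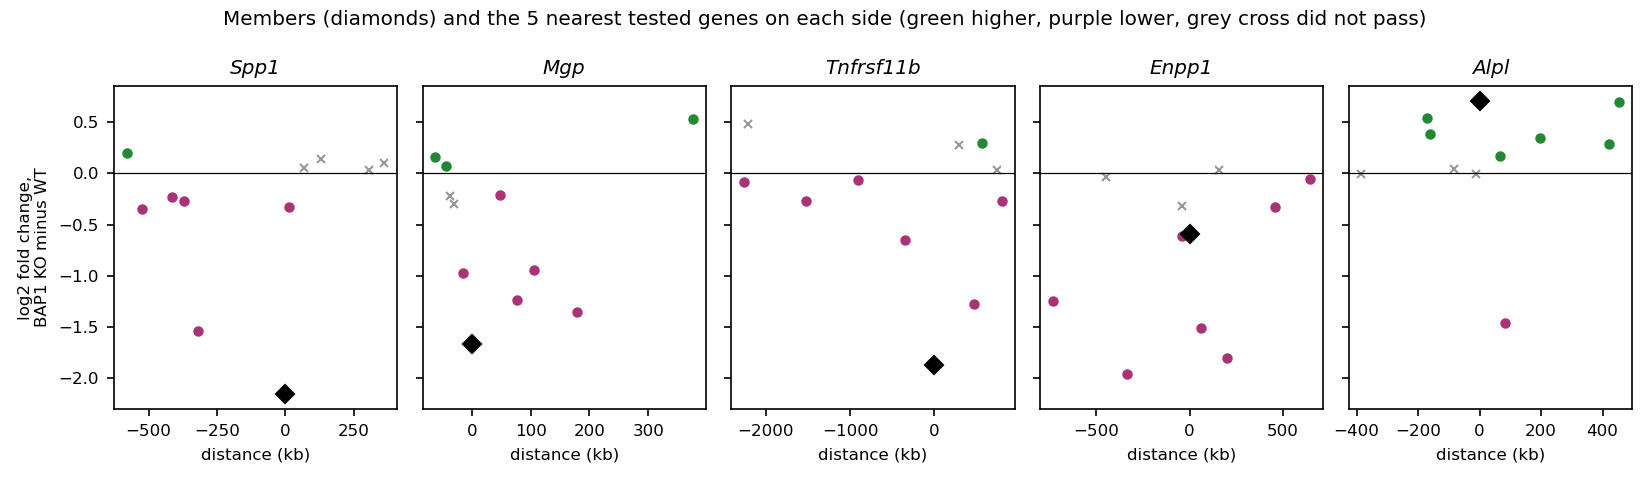
Log2 fold changes (BAP1 KO minus WT) of 5 members (black diamonds) and of the 5 nearest tested genes on each side, against the distance in kb between the genes, negative towards lower coordinates. The diamonds of Spp1, Mgp and Tnfrsf11b, at -2.16, -1.67 and -1.87, lie below all their neighbours, and that of Enpp1, at -0.60, lies among its own.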

How the data were processed

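RNA of 8 libraries was measured, 4 WT and 4 BAP1 KO, grouped by the genotype in the labels. Per the labels' protocols, TruSeq RNA v2 libraries, which do not keep the strand, were read as single 50 bp ends. The deposited counts are reads uniquely aligning to a gene model, per the file headers; beside them stand the authors' size-factor-adjusted RPKM, used here only to compare levels between genes. Per the submitters' processing notes, GSNAP and GRCm38 were used; which annotation and strand setting the counting used is not given in these sources. Totals lie above the 30 M reads per library that the labels name. Symbols and coordinates came from RefSeq (GRCm38.p6) for 31049 of 36528 identifiers, exon overlaps and shared stretches from GENCODE vM21.

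Counts were tested across all genes with edgeR 4.0.16 (R 4.3.3): filterByExpr, TMM factors, robust quasi-likelihood F test and Benjamini-Hochberg adjustment at 0.05. Standard errors were taken as log2 fold change over the root of F. The script was tested on simulated data. Labels pair no libraries, and no pair of libraries of the same genotype agreed within counting noise. The median squared difference within such a pair was 2.36 to 5.2 times that of counting noise. Nothing says that the libraries came from separate animals, so p-values measure only their spread, possibly technical. The members and lists were chosen with earlier results of these data known. Named were all members, from each list the 4 genes (or fewer) that passed with the lowest adjusted p, 15 fixed genes that act on or resemble a member whatever their test, and for Spp1 and Mgp the 3 genes most like them by Pearson correlation. The gene cluster around Spp1, the neighbouring genes, the motif search and the shared stretches were added after the data were seen. Cell type markers and neighbouring genes were named outside the rule above. The alternatives were RLE, upper quartile and no factors, 2 other filters, DESeq2 1.42.0, limma-voom (limma 3.58.1) and each library left out.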

Additional observations from a re-analysis of the deposited data

Results flagged for a closer look

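Of 98 groups of 4 libraries examined, for the 8 members and the named genes of the lists, 4 held a library far from the other 3 by Dixon's criterion, where chance flags about 1 group in 20. Runx2 stood at 17.6 CPM in BAP1 KO replicate 4, above 16.6 to 16.7 CPM in the other BAP1 KO libraries; all 4 remained above WT. Enpp3 stood at 2.90 CPM in the same library, below 3.31 to 3.39 CPM. Tnfsf11 was at 0.0779 CPM in WT replicate 4, below 0.163 to 0.179 CPM, a difference of a few counts. Tle2 was at 1.72 CPM in BAP1 KO replicate 2, below 1.85 to 1.88 CPM.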

How the results depend on the processing

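All 8 members kept their direction and moved by less than 1 SD between libraries under the 7 other settings and without each library in turn. Without each library the log2 fold change ran from -2.17 to -2.14 for Spp1, -1.68 to -1.66 for Mgp, -1.88 to -1.86 for Tnfrsf11b, -0.63 to -0.57 for Enpp1, 0.69 to 0.77 for Alpl, 0.11 to 0.14 for Runx1, 0.34 to 0.38 for Runx2 and -0.83 to -0.68 for Runx3. Over the other settings the genes called ran from 4465 to 5159 higher and 4878 to 5754 lower (4908 and 5432 as reported), and without each library from 4650 to 4883 and 5172 to 5370; the listed genes called ran from 36 to 43 higher and 50 to 53 lower. Of the 41 named genes of the lists, 39 kept their call wherever they were tested (a filter of 1 CPM in 4 libraries left out Tnfsf11, Tnfsf10 and Matn3), and those of Ggcx and Sox6 were lost as stated; the cause was not tested. No paired analysis was possible because the labels give no replicate numbers. The replicate numbers used here count the libraries of each genotype in the order of the samples, so equal numbers do not link WT and BAP1 KO libraries. Depth limits Ibsp, Bglap, Bglap2, Bglap3 and Tnfsf11, at 17 counts or fewer per library. Tnfsf10 and Matn3 also rest on few counts, 14 to 50 and 11 to 63 per library.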
